A study of Mus musculus with 20 samples.

Results

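The supply of active glucocorticoid to the liver, and the liver's answer to it, were followed through 10 genes: the receptor Nr3c1, the activating enzyme Hsd11b1, the carrier Serpina6, and the induced genes Fkbp5, Zbtb16, Klf9, Errfi1, Tsc22d3, Dusp1 and Sgk1. They were chosen by name, with earlier results of these data known, out of 18193 genes read on the array. Each was read from its brightest probe set, the one with the highest mean log2 intensity over all 20 arrays. That mean ran from 7.75 for Zbtb16 to 12.42 for Errfi1; it picked the probe set and used no comparison between groups.

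Glucocorticoids are steroid hormones of the adrenal cortex that travel in blood mostly bound to corticosteroid-binding globulin, a protein the liver makes from Serpina6. In hepatocytes 11-beta-hydroxysteroid dehydrogenase type 1, the product of Hsd11b1, turns inactive 11-ketosteroid into active corticosterone. The hormone binds the receptor Nr3c1, held ready by heat shock protein chaperones, and the receptor then acts on DNA, raising genes of glucose output, feedback and anti-inflammatory control.

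Stearoyl-CoA desaturase (Scd1) makes monounsaturated fatty acids. Livers of Scd1-/- (knockout) and Scd1+/+ (wild-type) mice, kept on chow or on a diet very low in fat (Harlan Teklad TD03045, called VLF-HC in the design; below, the VLF diet), were hybridized one by one to Affymetrix mouse expression arrays, 5 livers in each of the 4 groups. Each array held RNA of a flash frozen piece of 1 liver, with all its cell types, and the livers are individual ones per the design. The labels used here do not state strain, sex, age, time on the diet or hour of collection, nor which exons the knockout lacks.

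Scd1 itself read 27.2 to 57.4 in the knockout livers as deposited on chow, 25.9 to 37.4 in those on the VLF diet, and 6522 to 20110 in wild type, so each liver matched its genotype label. Deposited array medians lay between 32.2 and 36.6. The hepatocyte marker list was bright in every group, with a summed level of 104000 to 121000. Some livers stood apart from their group. Knockout chow replicate 3 read 6556 for the acute-phase gene Lcn2, where the other 4 livers of that group read 158 to 249. Its summed neutrophil marker level was 1210 against 408 to 525. Knockout VLF replicate 1 had a neutrophil sum of 4920, against 917 to 1580 in the others of its group. Wild-type VLF replicate 5 had a sum of adrenal, fat and pancreas markers of 1290, against 525 to 578. Results that involve the knockout chow group are given with and without its replicate 3 where it matters.

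Promoter stretches of 3 of the genes are shown because they hold a full receptor palindrome or a cAMP response element, a motif through which glucagon and other cAMP-raising hormones act on liver genes. RefSeq windows on build GRCm38.p6 matched 7 of the 10 genes with 15 windows in all. Each run below is the 250 bases before an annotated start, written along the gene's strand, with the matched motif in capitals: the receptor's palindrome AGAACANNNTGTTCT in Sgk1, and the cAMP response element TGACGTCA in Dusp1 and Errfi1.
Sgk1: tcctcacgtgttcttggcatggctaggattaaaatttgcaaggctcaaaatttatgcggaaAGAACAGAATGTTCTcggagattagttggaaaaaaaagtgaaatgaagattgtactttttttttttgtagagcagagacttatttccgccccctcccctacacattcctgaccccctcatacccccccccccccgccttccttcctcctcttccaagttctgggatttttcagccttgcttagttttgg
Dusp1: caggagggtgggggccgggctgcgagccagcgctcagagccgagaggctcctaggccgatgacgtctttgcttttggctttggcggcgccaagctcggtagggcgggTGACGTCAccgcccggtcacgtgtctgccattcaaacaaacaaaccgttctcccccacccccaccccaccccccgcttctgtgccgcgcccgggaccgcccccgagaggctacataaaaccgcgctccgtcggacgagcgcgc
Errfi1: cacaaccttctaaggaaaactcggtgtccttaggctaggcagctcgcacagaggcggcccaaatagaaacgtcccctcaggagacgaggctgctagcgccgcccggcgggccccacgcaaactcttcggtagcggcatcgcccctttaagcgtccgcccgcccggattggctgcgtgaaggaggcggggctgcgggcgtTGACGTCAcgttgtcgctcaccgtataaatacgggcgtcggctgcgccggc
The Sgk1 window lies at chr10:21993640-21993889 on the plus strand and is 1 of 6 for that gene; its palindrome ends 174 bases before the start. Of 32851 windows of this length on both strands, 3 held the palindrome (0.00913%), while its AGAACA arm was found in 16.1%, among them 4 windows of Sgk1 and Tsc22d3. The Dusp1 window lies at chr17:26508473-26508722 on the minus strand with its motif 135 bases from the start, and the Errfi1 window, 1 of 2, at chr4:150854820-150855069 on the plus strand with its motif 43 bases away. TGACGTCA was found in 1.55% of all windows. These are matches of letters, which the arrays do not test.

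**Figure D1:**
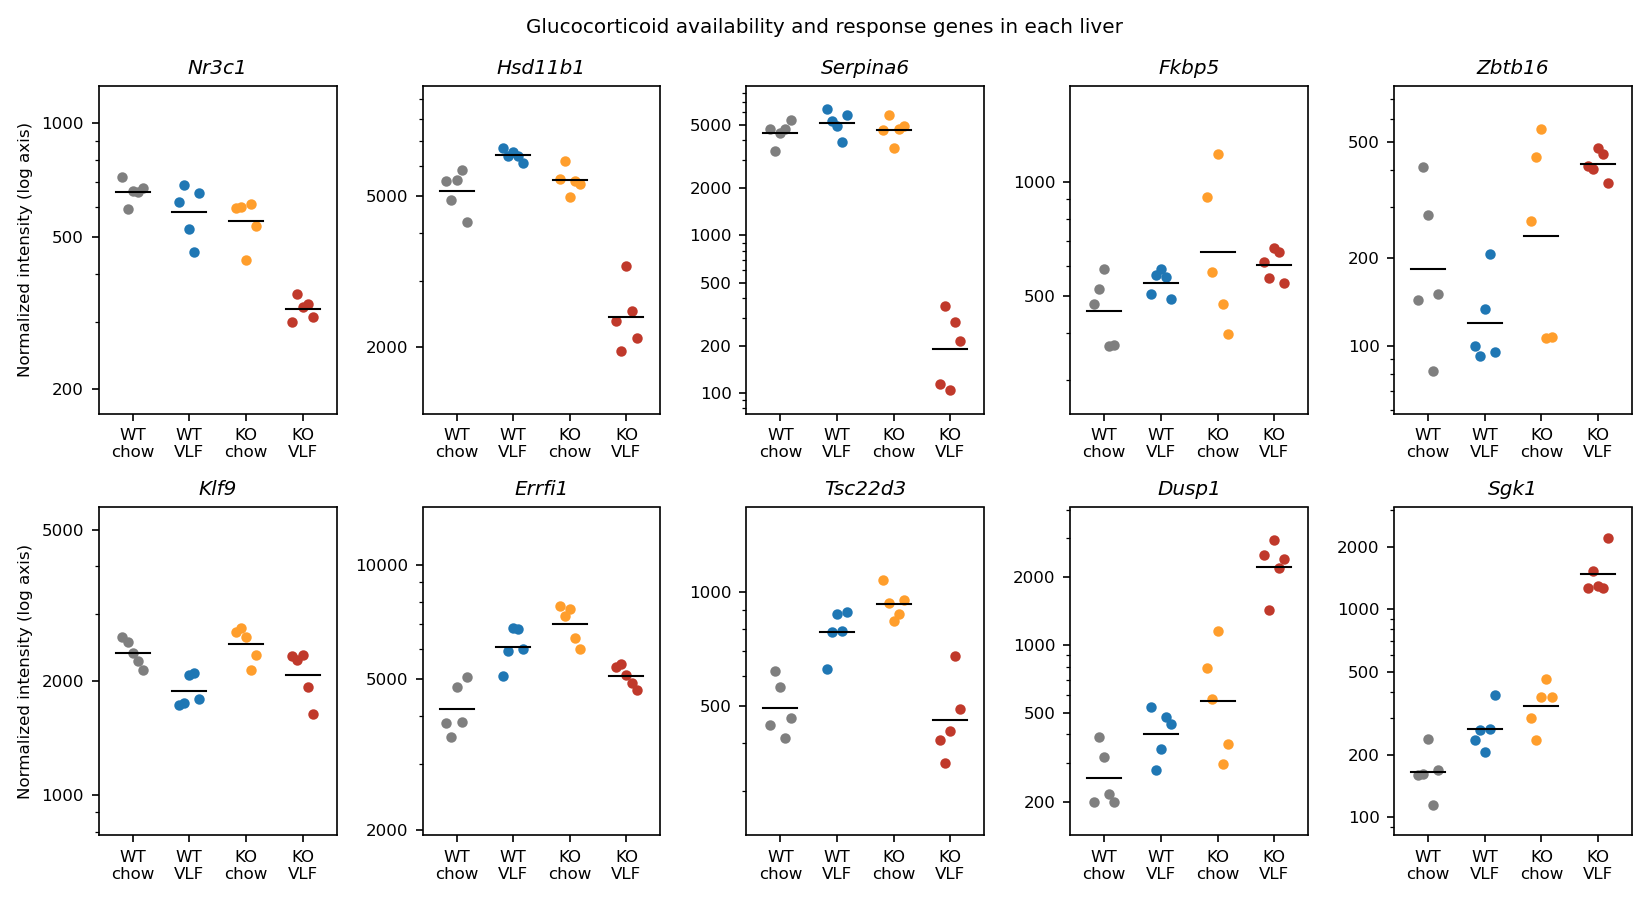
Normalized intensity (log axis) of the 10 genes in each of the 20 livers, in 4 groups of 5 (WT, wild type; KO, Scd1 knockout); each point is 1 liver and each bar the group's mean of log2 values. Serpina6, Hsd11b1 and Nr3c1 were lowest, and Dusp1 and Sgk1 highest, in the knockout livers on the VLF diet, with no overlap with another group.

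The question the study put was which changes belong to the knockout livers on the VLF diet. There, against wild type on the same diet, the 3 genes of hormone supply and reception fell together, while among the induced genes Sgk1, Dusp1 and Zbtb16 rose, Tsc22d3 fell, and Fkbp5, Klf9 and Errfi1 did not pass the test. In all, 7 of the 10 passed limma's adjusted p under 0.05 (3 up, 4 down). Of all genes 42.1% passed in this comparison, 19.2% up and 23.0% down, and the median change of the 10 was -0.06 and that of all measurable genes -0.06. The values of 6 of the 10 genes did not overlap between the groups, against 30.1% of all genes.

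Serpina6 (probe set 1448506_at) fell furthest. In knockout livers on the VLF diet it read 114, 359, 104, 281 and 214 units of normalized intensity, and on chow 4625, 5819, 3549, 4693 and 4922. Wild-type livers read 6308, 5272, 4922, 3888 and 5819 on the VLF diet and 4693, 3400, 4444, 4704 and 5416 on chow. The 15 livers of the other groups shared one range, and all 5 knockout VLF livers lay far under it. The fall against wild type on the VLF diet was 27.1-fold (log2 change -4.76 ± 0.27 SE, n = 5 and 5, limma adjusted p = 2.08e-10). Within the knockout, VLF diet against chow gave a 24.4-fold fall (-4.61 ± 0.27, adjusted p = 3.18e-10). Neither genotype on chow (0.06 ± 0.27, adjusted p = 1) nor diet in wild type (0.21 ± 0.27, adjusted p = 1) passed the test.

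Because a liver piece holds many cell types, fewer hepatocytes and less RNA per hepatocyte cannot be told apart. Beside these falls, 4 of 8 hepatocyte markers fell (Apob, Fgb, Hnf4a and Cyp2e1), with a summed level of 104000 to 112000 in knockout VLF livers against 118000 to 121000 in wild type on that diet. For this and the marker lists below, the share of all genes called was 42.1%, 19.2% up and 23.0% down. Albumin, also on that list, lay at the top of the scale, where quantile normalization sets the value by rank. Its level is not compared, and the hepatocyte sum includes it. In knockout chow livers the hepatocyte sum was 118000 to 120000 and the macrophage sum 5840 to 8390. All 11 macrophage markers rose, with a summed level of 15400 to 21800 against 4670 to 5650, and 6 of 9 stellate and fibroblast markers rose while 1 fell, at 5280 to 6760 against 2880 to 3800. Neutrophil markers had 3 up and 1 down of 7, at 917 to 4920 against 360 to 420. Lymphocyte markers had 0 up and 2 down of 7, at 359 to 429 against 405 to 505. Red cell markers had 0 up and 2 down of 3, at 107 to 205 against 226 to 407, and markers of adrenal, fat and pancreas 0 up and 3 down of 6, at 367 to 513 against 525 to 1290. Endothelial markers had 1 up and 4 down of 7, at 2090 to 2980 against 2300 to 2760, and cholangiocyte markers 1 up of 5, at 286 to 330 against 264 to 309. The adipocyte marker Adipoq, the red cell marker Hba-a1 and the duct marker Cftr were at the floor of the scale on every array. The 3' to 5' signal ratio of actin, a measure of RNA integrity, was 1.69 to 1.96 in knockout VLF livers, 1.95 to 2.39 in wild type on that diet, 2.10 to 2.37 in knockout chow and 2.49 to 3.07 in wild-type chow livers. The part of these shifts in the results was not tested.

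Hsd11b1 (probe set 1449038_at) read 2347, 1954, 3282, 2492 and 2117 in knockout livers on the VLF diet and 5554, 6211, 4978, 5472 and 5381 on chow. In wild type it read 6691, 6393, 6556, 6393 and 6122 on the VLF diet and 5498, 4882, 5511, 5860 and 4269 on chow. Only the knockout VLF livers were low, none of them reaching any liver of another group. Against wild type on the VLF diet the enzyme's transcript fell 2.68-fold (-1.42 ± 0.11, limma adjusted p = 9.80e-09), and against knockout chow by 1.20 on the log2 scale (± 0.11, adjusted p = 9.24e-08). In wild type the VLF diet values all lay above the chow values, but this difference of 0.31 ± 0.11 did not pass the test (adjusted p = 0.212). The step between wild-type chow and knockout chow was 0.09 ± 0.11 (adjusted p = 0.807), and the ranges overlapped.

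For the receptor Nr3c1 (probe set 1421867_at), knockout livers read 299, 355, 328, 333 and 309 on the VLF diet and 597, 601, 435, 613 and 536 on chow. Wild-type livers read 620, 689, 525, 457 and 656 on the VLF diet and 720, 595, 661, 658 and 674 on chow. Knockout VLF livers formed a tight low group under all others, and the other 3 groups overlapped. The receptor's transcript fell 1.80-fold against wild type on the VLF diet (-0.85 ± 0.11, limma adjusted p = 4.19e-06) and by 0.77 on the log2 scale against knockout chow (± 0.11, adjusted p = 1.42e-05). Of its 5 other probe sets, 3 fell as well on the VLF diet, by 0.97, 0.92 and 0.63, and the remaining ones sat at the floor of the scale or next to it. The one that fell by 0.63 was dim, at 16 to 23 in knockout VLF and 26 to 40 in wild-type VLF livers. On 1 knockout VLF array it was at the floor. When arrays were centred on the hybridization control probe sets in place of quantile normalization, the change between diets in the knockout was -0.34 ± 0.13. It then missed the threshold (limma adjusted p = 0.0533). Under that centring the all-gene median went from -0.03 to 0.30 between knockout diets, from -0.06 to 0.14 between genotypes on the VLF diet and from 0 to 0.33 in the difference between those genotype effects. Relative to the median Nr3c1 stood at -0.74 in the main values and -0.64 under the centring.

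Other genes of corticosteroid handling were read from a list of 10, of which 8 were found. On the VLF diet 3 fell and 1 rose in the knockout, a share near the 42.1% of all genes called there. The liver enzymes that reduce steroids fell: Akr1c14, a hydroxysteroid dehydrogenase (-1.77 ± 0.15, limma adjusted p = 2.48e-08), Akr1d1, the steroid 5-beta-reductase (-1.20 ± 0.19, adjusted p = 7.65e-05), and Akr1c6, a hydroxysteroid dehydrogenase (-0.93 ± 0.10, adjusted p = 1.01e-06). The efflux pump Abcb1a, which exports corticosteroids among many substrates, rose (1.78 ± 0.20, adjusted p = 8.88e-07). Between diets in the knockout, where 34.7% of all genes were called, 2 of the 8 rose and 4 fell, albumin being 1 of those called up with its value set by rank, and on chow or by diet in wild type 0 of the 8 passed limma's adjusted test, with 1 and 3 at an unadjusted p under 0.05. Hsd11b2, the enzyme that inactivates the hormone in kidney, was at the floor on 19 of the 20 arrays and is named here after its values were seen.

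Of 20 chaperones and cofactors of the receptor, 15 were found, and on the VLF diet 2 rose and 4 fell in the knockout, which is near the 42.1% called among all genes. Fkbp4, the co-chaperone FKBP52 that aids hormone binding by the receptor, read 320, 294, 240, 362 and 278 in knockout VLF livers against 788, 734, 645, 541 and 809 in wild type. Knockout VLF livers were thus all below wild type, a fall of 1.23 on the log2 scale (± 0.12, limma adjusted p = 1.72e-07). The chaperone Hsp90aa1 rose (0.71 ± 0.16, adjusted p = 0.00196), as did Nrip1, a nuclear receptor corepressor (1.07 ± 0.09, adjusted p = 4.16e-08). Falls of 0.34 in St13, a co-chaperone, and 0.49 in Nr3c2, the mineralocorticoid receptor, were smaller (adjusted p = 0.00019 and 0.00545). The coactivator Ncoa2 fell by 0.21 (adjusted p = 0.0419).

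Sgk1 (probe set 1416041_at), a kinase acting on ion and nutrient transport, whose palindrome is printed above, read 1261, 1533, 1291, 1259 and 2201 in knockout livers on the VLF diet and 301, 235, 377, 464 and 379 on chow. Wild-type livers read 234, 263, 206, 267 and 389 on the VLF diet and 160, 162, 238, 115 and 168 on chow. The knockout VLF livers stood well above every other liver. The rise was 5.54-fold against wild type on that diet (2.47 ± 0.22, limma adjusted p = 4.42e-08) and 4.30-fold against knockout chow (2.11 ± 0.22, adjusted p = 3.57e-07).

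Dusp1 (probe set 1448830_at) encodes a phosphatase that switches off MAP kinases. In knockout livers it read 2507, 1424, 2919, 2194 and 2423 on the VLF diet and 789, 574, 1150, 297 and 363 on chow. Wild-type livers read 528, 278, 343, 480 and 443 on the VLF diet and 200, 391, 316, 218 and 201 on chow. Knockout VLF livers were again highest with no overlap, while knockout chow livers spread 3.87-fold from lowest to highest and overlapped both wild-type groups. Dusp1 rose 5.53-fold against wild type on the VLF diet (2.47 ± 0.32, limma adjusted p = 5.59e-06) and 3.97-fold against knockout chow (1.99 ± 0.32, adjusted p = 7.18e-05).

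Zbtb16 (probe set 1439163_at), a zinc finger transcription factor, read 412, 402, 478, 456 and 360 in knockout VLF livers and 268, 443, 555, 106 and 107 in knockout chow livers. In wild type it read 100, 92, 134, 207 and 95 on the VLF diet and 144, 410, 280, 82 and 151 on chow. On the VLF diet the genotypes did not overlap, but the chow groups spanned nearly the whole range. Against wild type on the VLF diet the rise was 3.52-fold (1.81 ± 0.46, limma adjusted p = 0.00442), and both other probe sets of the gene rose too, by 1.56 and 0.41. No other comparison of Zbtb16 passed, although centring on hybridization controls gave 1.24 ± 0.46 between knockout diets (adjusted p = 0.0433).

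Tsc22d3 (probe set 1420772_a_at) encodes GILZ, an anti-inflammatory protein named for its induction by glucocorticoids. It read 407, 355, 430, 677 and 491 in knockout livers on the VLF diet and 1079, 934, 841, 875 and 954 on chow. Wild-type livers read 627, 783, 874, 788 and 885 on the VLF diet and 448, 618, 561, 412 and 465 on chow. Knockout chow and wild-type VLF livers were mostly high, and knockout VLF and wild-type chow livers low. Against wild type on the VLF diet it fell by 0.77 on the log2 scale (± 0.15, limma adjusted p = 0.000443), although knockout replicate 4 lay inside the wild-type range. Between knockout diets the fall was 1.02 with no overlap (-1.02 ± 0.15, adjusted p = 2.59e-05). Centring on hybridization controls left -0.41 ± 0.18 on the VLF diet, which missed the threshold (adjusted p = 0.12), or -0.55 relative to the median of all genes.

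Errfi1 (probe set 1416129_at), a feedback inhibitor of the EGF receptor, was the brightest of the 10. In knockout livers it read 5375, 5486, 5126, 4898 and 4686 on the VLF diet and 7825, 7356, 7673, 6422 and 5999 on chow. Wild-type livers read 5114, 5941, 6816, 6770 and 5999 on the VLF diet and 3837, 3526, 4787, 3851 and 5059 on chow. Knockout chow livers were highest and wild-type chow livers lowest, with neighbouring groups overlapping. Between knockout diets Errfi1 fell by 0.46 (± 0.10, limma adjusted p = 0.0022), with no overlap; centring on hybridization controls left -0.10 ± 0.12 (adjusted p = 0.557), or -0.40 relative to the median of all genes. On the VLF diet the change of -0.26 ± 0.10 did not pass (adjusted p = 0.0691), and it was -0.01 ± 0.12 under that centring (adjusted p = 1), while without wild-type VLF replicate 1 it passed (-0.32, adjusted p = 0.0267).

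Fkbp5 (probe set 1416125_at), the co-chaperone FKBP51 that dampens the receptor and is a standard readout of its activity, did not separate the groups. Knockout livers read 614, 560, 670, 652 and 543 on the VLF diet and 912, 579, 1187, 477 and 397 on chow, and wild-type livers 506, 567, 588, 563 and 491 on the VLF diet and 477, 521, 590, 370 and 373 on chow. All 4 groups overlapped, although knockout chow replicates 1 and 3 (912 and 1187) read above every liver of the other groups. No comparison passed, the smallest limma adjusted p being 0.189, for 0.51 ± 0.22 by genotype on chow. On the VLF diet the difference was 0.16 ± 0.22 (adjusted p = 0.743), and the gene's next probe set gave -0.03 ± 0.20 (adjusted p = 1). Klf9 (probe set 1428288_at), a Krüppel-like factor, read 1630 to 2331 (median 2265) in knockout VLF livers, 2134 to 2753 (2612) in knockout chow, 1728 to 2099 (1786) in wild-type VLF and 2134 to 2612 (2371) in wild-type chow livers. Wild-type VLF livers lay under all wild-type chow livers, but the difference of -0.34 ± 0.10 did not pass (adjusted p = 0.13). Between knockout diets Klf9 stood at -0.27 ± 0.10 (adjusted p = 0.0607), and it passed without knockout VLF replicate 1, 2 or 3 or knockout chow replicate 4 (-0.32 to -0.30, adjusted p = 0.0263 to 0.0495). Over all 10 omissions of 1 liver it ran from -0.32 to -0.18 (adjusted p up to 0.188), and centring on hybridization controls left 0.03 ± 0.13 (adjusted p = 1), or -0.27 relative to the median of all genes. That centring raised its genotype difference on the VLF diet from 0.14 ± 0.10 (adjusted p = 0.335) to 0.35 ± 0.13 (adjusted p = 0.0465). Klf9 had 7 probe sets, and a dimmer one passed between knockout diets (-0.32 ± 0.08, limma adjusted p = 0.00593), without overlap. The remaining ones stood at -0.34 to -0.08 there and did not pass.

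**Figure D2:**
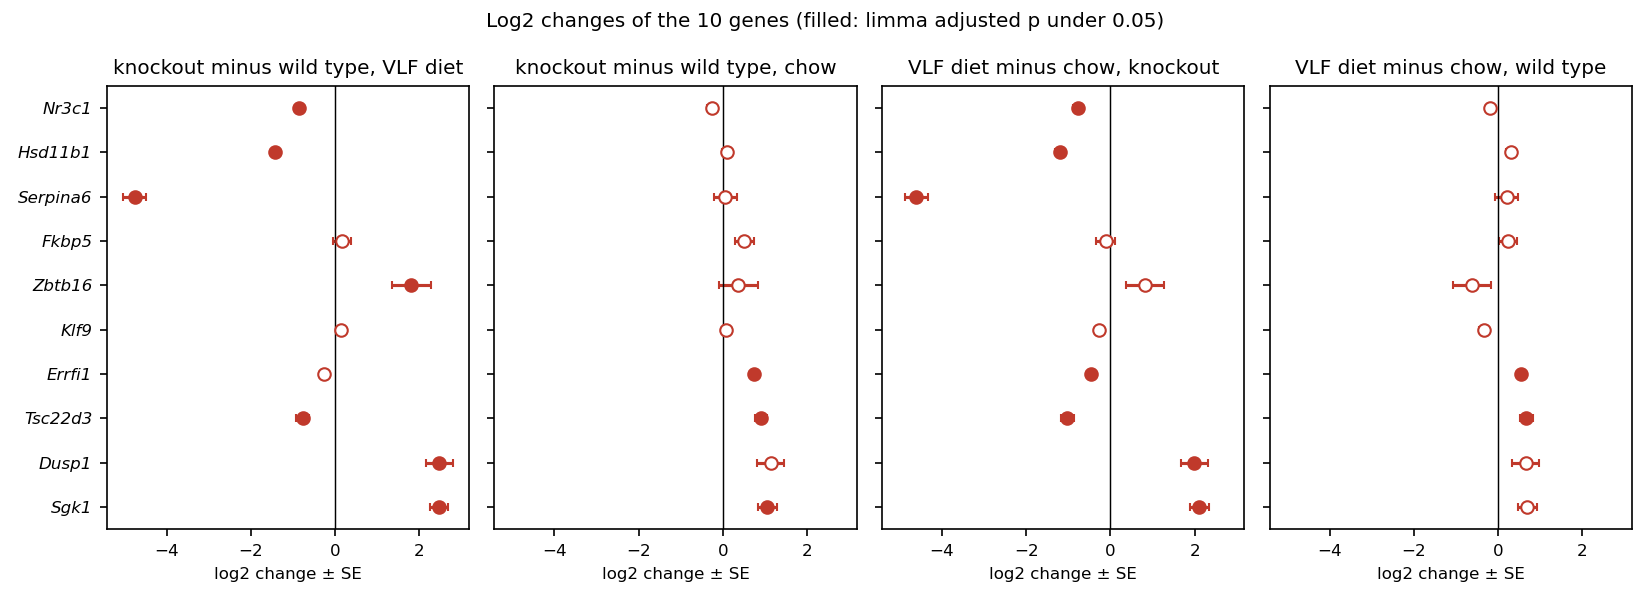
Log2 change ± SE of each of the 10 genes in 4 comparisons of 5 against 5 livers; filled points passed limma's adjusted p under 0.05. Serpina6 lies at -4.76 and -4.61 in the comparisons that involve the knockout VLF livers and near 0 in the other 2, while Errfi1 and Tsc22d3 lie right of 0 in those 2 and, Errfi1 on the VLF diet unfilled, left of 0 in the others.

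On chow, Errfi1, Tsc22d3 and Sgk1 rose in the knockout and none of the 10 fell, against 2.94% of all genes called in that comparison (1.23% up, 1.70% down). Errfi1 rose by 0.75 (± 0.10, limma adjusted p = 0.00615) and Tsc22d3 by 0.91 (± 0.15, adjusted p = 0.0117), each with all 5 knockout livers above all 5 wild-type livers. The groups did not overlap, in either direction, for 6.13% of all genes. Sgk1 rose by 1.06 (± 0.22, adjusted p = 0.029) with 1 wild-type liver inside the knockout range. Dusp1 stood at 1.14 ± 0.32 without passing (adjusted p = 0.0575); the change was 0.88 without knockout chow replicate 3 (adjusted p = 0.164) and 1.30, past the threshold, without knockout chow replicate 5 (adjusted p = 0.0487). The median change of the 10 genes was 0.44, against -0.02 for all genes.

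The call of Sgk1 depended on single livers, and all 3 calls on which scaling was used. With median scaling and no quantile normalization all 3 passed (limma adjusted p = 0.00482 for Errfi1, 0.00478 for Tsc22d3 and 0.0124 for Sgk1). Dusp1 then passed too (1.36, adjusted p = 0.0345), and 1258 of all genes were called up and 234 down. Without knockout chow replicate 3, Errfi1 (0.72, adjusted p = 0.0202) and Tsc22d3 (0.95, adjusted p = 0.0313) still passed limma's test, and Sgk1 did not (1.02, adjusted p = 0.077). Sgk1 also missed it without knockout chow replicate 4 (0.95, adjusted p = 0.0656), wild-type chow replicate 1 (1.06, adjusted p = 0.0768) or wild-type chow replicate 4 (0.94, adjusted p = 0.0634). Centred on hybridization controls, 0 of the 10 passed, at 0.64 for Errfi1 (limma adjusted p = 0.0883), 0.96 for Tsc22d3 (adjusted p = 0.0955) and 1.08 for Sgk1 (adjusted p = 0.181), with 5 of the 10 at an unadjusted p under 0.05; 3 of all genes then passed in place of 534. Of 11 macrophage markers 1, Cd163, also rose on chow, with a summed level of 5840 to 8390 against 5810 to 6190, and the actin ratio was 2.10 to 2.37 in knockout against 2.49 to 3.07 in wild type; the part of these in the result was not tested.

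The VLF diet in wild type raised Errfi1 and Tsc22d3 of the 10, where 1.57% of all genes passed (0.786% up, 0.781% down). Errfi1 rose by 0.55 (± 0.10, limma adjusted p = 0.0139) and Tsc22d3 by 0.67 (± 0.15, adjusted p = 0.0367). Both had all VLF livers above all chow livers, Hsd11b1 likewise, and Klf9 all below; 4.27% of all genes had such separation. The median of the 10 was 0.28 against -0.02. Errfi1 lost its call without wild-type VLF replicate 4 (0.51, adjusted p = 0.0504). Tsc22d3 lost it without wild-type VLF replicate 2, 3, 4 or 5 or wild-type chow replicate 1, 4 or 5, with changes of 0.60 to 0.67 (adjusted p = 0.0677 to 0.103). Its next brightest probe set passed (0.91 ± 0.12, limma adjusted p = 0.000884), and the remaining ones did not (0.19 and -0.13, adjusted p = 0.387 and 0.616). The last of these read close to the floor. Centring on hybridization controls gave 0.54 for Errfi1 (limma adjusted p = 0.0878) and 0.76 for Tsc22d3 (adjusted p = 0.151), so that 0 of the 10 passed and 6 had an unadjusted p under 0.05. This comparison and that of the genotypes on chow share the 5 wild-type chow livers, which were the lowest group for Errfi1 and whose actin ratio of 2.49 to 3.07 was the highest, against 1.95 to 2.39 in wild-type VLF livers; its part was not tested.

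In the knockout, the same diet change called 7 of the 10, with Dusp1 and Sgk1 up and Nr3c1, Hsd11b1, Serpina6, Errfi1 and Tsc22d3 down. Of all genes 34.7% passed, 17.1% up and 17.7% down. All 7 had no overlap between diets, which held for 25.3% of all genes. Centred on hybridization controls, the split of all called genes moved from 3108 up and 3213 down to 6798 up and 871 down, and that of the 10 from 2 up and 5 down to 3 up and 3 down. On the VLF diet the same centring moved all called genes from 3491 up and 4177 down to 5092 up and 957 down, and the 10 from 3 up and 4 down to 4 up and 3 down. These comparisons share the knockout VLF livers. Without knockout chow replicate 3 the same 7 genes passed between knockout diets, with 2.25 for Dusp1, 2.15 for Sgk1, -0.86 for Nr3c1 and -4.71 for Serpina6.

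The test of the difference between the genotype effects on the 2 diets passed for 7 of the 10, against 24.2% of all genes (12.1% up, 12.1% down). The direction turned in Tsc22d3: genotype raised it on chow and lowered it on the VLF diet, a difference of -1.69 ± 0.21 (limma adjusted p = 1.01e-05). Errfi1 differed by -1.01 ± 0.15 (adjusted p = 5.81e-05). Serpina6 (-4.82 ± 0.38, adjusted p = 6.21e-08), Hsd11b1 (-1.51 ± 0.16, adjusted p = 1.22e-06) and Nr3c1 (-0.59 ± 0.15, adjusted p = 0.00853) had falls on the VLF diet that chow did not show; for Nr3c1 the centring on hybridization controls left -0.24 ± 0.19 (adjusted p = 0.388), or -0.57 relative to the median of all genes. Sgk1 rose more on the VLF diet than on chow (1.41 ± 0.30, adjusted p = 0.00232). Dusp1 passed narrowly (1.33 ± 0.45, adjusted p = 0.0472) and missed the threshold without any one of 14 of the 20 livers, at 1.10 to 1.39 (adjusted p = 0.0504 to 0.0937).

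The turn in Tsc22d3 was seen with 2 of its 4 probe sets. The next brightest gave -0.64 ± 0.12 on the VLF diet (limma adjusted p = 0.000235), 1.18 ± 0.12 on chow (adjusted p = 0.000117), and a difference of -1.82 ± 0.16 (adjusted p = 2.62e-07). Another fell on the VLF diet (-0.50 ± 0.09, adjusted p = 0.000156) without a passing change on chow (0.14 ± 0.09, adjusted p = 0.405). A dim one, the only probe set of Tsc22d3 designed without a sign of shared sequence in its name, gave -0.22 ± 0.08 on the VLF diet (adjusted p = 0.0405), -0.26 ± 0.08 on chow (adjusted p = 0.0737) and a difference of 0.04 ± 0.11 (adjusted p = 1). This dim probe set read only 16 to 25, with 2 knockout VLF arrays and 1 knockout chow array at the floor of 16. For Errfi1 the other probe set gave -0.49 ± 0.15 on the VLF diet and 1.03 ± 0.15 on chow, both past the test (adjusted p = 0.0137 and 0.00651).

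Ordered by group, Nr3c1, Hsd11b1 and Serpina6 had knockout VLF livers lowest, by steps of 0.77, 1.11 and 4.55 on the log2 scale to the next group without overlap, and the 3 upper groups overlapped as neighbours. Dusp1 and Sgk1 ran wild-type chow, wild-type VLF, knockout chow, knockout VLF, and only the last step separated without overlap (1.99 and 2.11). In Tsc22d3 knockout VLF and wild-type chow livers were neighbours 0.10 apart, followed by a step of 0.67 without overlap to wild-type VLF. Neighbours in the orders of Fkbp5, Zbtb16, Klf9 and Errfi1 overlapped at every step.

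A further list of 26 genes with textbook induction by glucocorticoids, 25 of them found, had 13 up and 3 down on the VLF diet in the knockout, with a median change of 0.49 against -0.06 for all genes. Of all genes 42.1% were called there, 19.2% up and 23.0% down. The secreted iron-siderophore binder Lcn2 changed most (5.88 ± 0.72, limma adjusted p = 2.90e-06), then the estrogen sulfotransferase Sult1e1 (4.62 ± 0.51, adjusted p = 8.64e-07), which sat at the floor on 9 of the 20 arrays, so that its change depends on the floor. Igfbp1, an insulin-like growth factor binder, rose (3.67 ± 0.47, adjusted p = 4.74e-06). So did Ddit4, an mTOR inhibitor (3.38 ± 0.42, adjusted p = 3.33e-06), and Pdk4, which restrains pyruvate oxidation (3.26 ± 0.39, adjusted p = 2.65e-06). Mt2, a metallothionein, rose by 3.15 (± 0.46, adjusted p = 2.21e-05); like Lcn2 it is also an acute-phase gene. Among enzymes of amino acid and glucose metabolism on this list, Tat, tyrosine aminotransferase, stood at 0.43 ± 0.19 (adjusted p = 0.0845), G6pc, glucose-6-phosphatase, at 0.52 ± 0.26 (adjusted p = 0.141), Got1, an aspartate aminotransferase, at 0.48 ± 0.22 (adjusted p = 0.103) and Pck1, which starts gluconeogenesis from oxaloacetate, at -0.33 ± 0.14 (adjusted p = 0.0804), while Tdo2, tryptophan dioxygenase, fell by 0.58 (adjusted p = 0.000964). These enzymes were named after their values were seen.

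On chow 3 of these 25 rose: Ddit4 (2.12 ± 0.42, limma adjusted p = 0.0261), the transcription factor Cebpd (1.52 ± 0.31, adjusted p = 0.0291) and the clock gene Per1 (0.70 ± 0.14, adjusted p = 0.0291), with a median of 0.45 over the list against -0.02. Ddit4 read 602, 173, 951, 252 and 172 in knockout chow livers and 53, 111, 78, 58 and 105 in wild type. All knockout livers were above all wild-type livers, and replicate 3 was the highest. Without knockout chow replicate 3 or wild-type chow replicate 1, 0 of the 25 passed limma's adjusted test, with 9 and 11 at an unadjusted p under 0.05. Without knockout chow replicate 4 or wild-type chow replicate 4, 1 passed, and without wild-type chow replicate 5, 5 passed. By diet in wild type only Agt, angiotensinogen, passed, falling by 0.28 (limma adjusted p = 0.0458), a count that moved to 0 without wild-type VLF replicate 1, 2 or 4 or wild-type chow replicate 1, 2, 3 or 5 and to 2 without wild-type VLF replicate 3 or 5. By diet in the knockout 7 rose and 4 fell. The shares of all genes called were 2.94% on chow, 1.57% by diet in wild type and 34.7% by diet in the knockout.

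**Figure D3:**
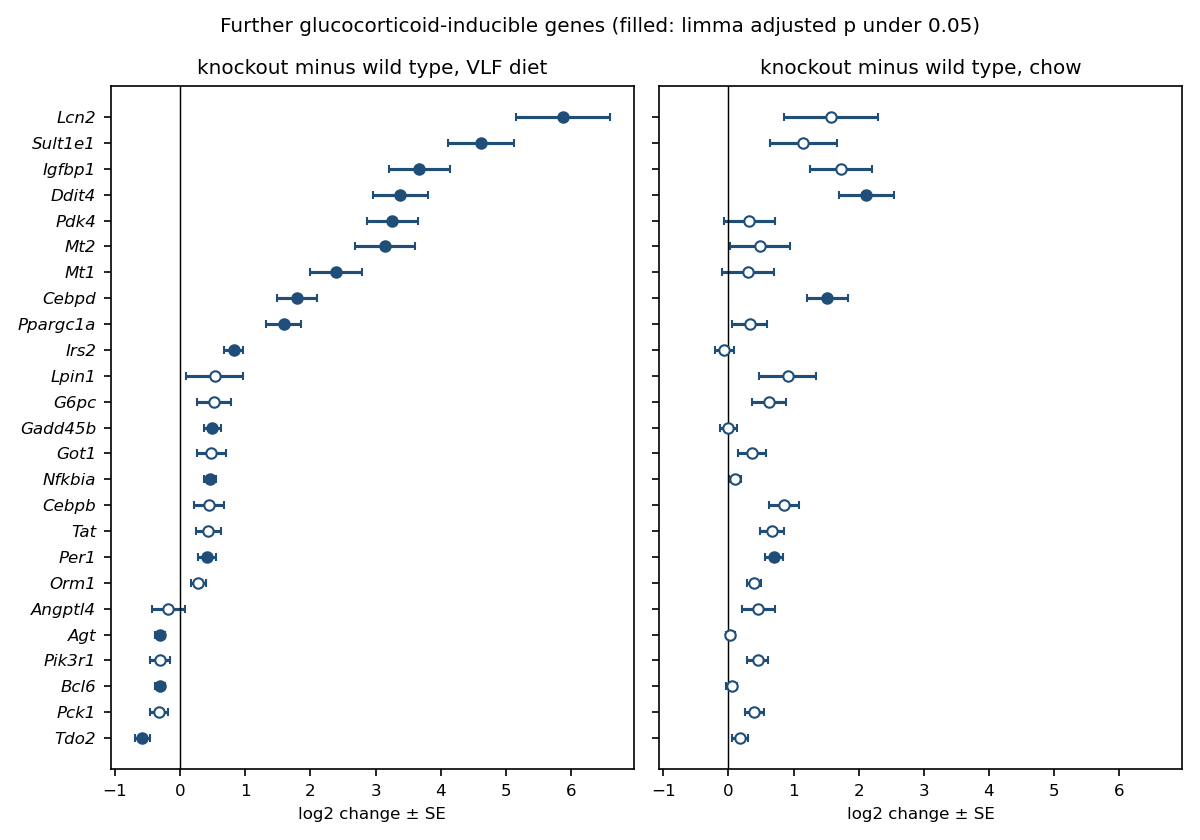
Log2 change ± SE of 25 further glucocorticoid-inducible genes, knockout minus wild type, for the VLF diet (left) and for chow (right), 5 against 5 livers; filled points passed limma's adjusted p under 0.05. On the VLF diet 13 are filled right of 0 and 3 left of it, and on chow 3 are filled, all right of 0.

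Of 12 inflammatory genes that glucocorticoids classically repress, 4 rose and 1 fell on the VLF diet in the knockout, near the 42.1% called among all genes, and Il6 was at the floor on every array. The adhesion molecules Vcam1 (2.86 ± 0.24, limma adjusted p = 3.29e-08) and Icam1 (1.41 ± 0.14, adjusted p = 1.42e-07) and the chemokines Ccl2 (1.60 ± 0.19, adjusted p = 2.79e-06) and Cxcl10 (1.74 ± 0.27, adjusted p = 5.32e-05) rose. Nos2 fell by 0.48 (adjusted p = 0.0123), and Tnf stood at -0.15 ± 0.07 (adjusted p = 0.13). All 11 macrophage markers rose in the same livers, as given above. On chow and by diet in wild type 0 of the 12 passed limma's adjusted test, with 2 and 0 at an unadjusted p under 0.05, although 1 passed on chow without wild-type chow replicate 5. By diet in the knockout 4 rose and 1 fell, where 34.7% of all genes were called.

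Glucocorticoids help set the liver clock, and 4 of 17 clock genes found rose while 6 fell on the VLF diet in the knockout. Of all genes 42.1% were called there, 19.2% up and 23.0% down. Dbp, a clock output factor, fell by 3.43 (± 0.31, limma adjusted p = 6.88e-08), Hlf by 1.20 and Nr1d2 by 0.90 (adjusted p = 3.45e-07 and 5.76e-06). Arntl, the core activator, rose by 1.15 (adjusted p = 5.99e-05). On chow Per1 alone passed, and not without knockout chow replicate 3 or 4 or wild-type chow replicate 1. By diet in wild type Per2 alone passed (0.84 ± 0.14, limma adjusted p = 0.0058), with 2 genes called without wild-type chow replicate 4, while by diet in the knockout 3 rose and 5 fell. The shares of all genes called were 2.94% on chow, 1.57% by diet in wild type and 34.7% by diet in the knockout. The hour of collection is not given, so a shift in phase and a change in level cannot be told apart.

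Dusp1 and Sgk1 are also immediate early genes, raised by growth factors and stress, and 13 of 16 other such genes rose and 0 fell on the VLF diet in the knockout (median 2.12 against -0.06). Of all genes 42.1% were called there, 19.2% up and 23.0% down. Atf3 rose by 3.64 (± 0.14, limma adjusted p = 1.08e-12), Klf6 by 2.20 and Myc by 2.33 (adjusted p = 1.18e-11 and 1.66e-10). On chow Btg2 alone rose (0.99 ± 0.24, adjusted p = 0.0428), and 0 were called without knockout chow replicate 1, 3 or 4 or wild-type chow replicate 1, 2, 3 or 4. By diet in wild type Egr1 alone passed, falling by 2.37 (adjusted p = 0.0299), and 0 were called without any one wild-type liver other than VLF replicate 5 and chow replicate 3. By diet in the knockout 10 rose and 1 fell. The shares of all genes called were 2.94% on chow, 1.57% by diet in wild type and 34.7% by diet in the knockout.

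The genes whose profile over the 20 arrays lay nearest to each strongly changed member were found by the mean absolute difference of log2 values centred on each gene's mean. Dusp1 lay nearest to the immediate early gene Fos (0.32), Vcam1 (0.35) and Rrm2, a ribonucleotide reductase subunit (0.36). Nearest to Sgk1 were Fkbp11 (0.26), Rgs1 (0.29) and Csf2rb2 (0.31). For Hsd11b1 they were Ppara, the fatty acid sensing receptor (0.12), Mfsd4b1 (0.13) and Rmnd5a (0.13), and for Serpina6 the carboxylesterase Ces1f (0.38), the carbonic anhydrase Car3 (0.44) and Inmt (0.44). Tsc22d3 had Atp23 (0.22), Tbccd1 (0.23) and Tob2 (0.23), and Zbtb16 had Dmxl2 (0.45), Rrs1 (0.45) and Carmil1 (0.46). None of these neighbours was one of the 10 genes.

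Livers of one group differed from each other as well. In knockout chow livers, replicate 3 was highest and replicates 4 and 5 lowest for both Zbtb16 and Dusp1, and the same livers held the extremes of Fkbp5 (1187 against 477 and 397). Over deviations from group means in all 20 livers, Fkbp5 and Dusp1 had a Pearson r of 0.75 (permutation p = 0.00726, adjusted p = 0.0724; Spearman rho 0.65, permutation p = 0.0172), Zbtb16 and Dusp1 0.75 (permutation p = 0.0043, adjusted p = 0.0718; rho 0.73, permutation p = 0.00397), and Fkbp5 and Zbtb16 0.75 (permutation p = 0.0164, adjusted p = 0.121; rho 0.69, permutation p = 0.0143). Without the 2 livers farthest from the median of the first gene named in each pair, these r values were 0.61, 0.63 and 0.61. Nr3c1 and Serpina6 had r = 0.52 (permutation p = 0.00113, adjusted p = 0.0508; rho 0.54, permutation p = 0.0182), or 0.44 without the 2 farthest livers.

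Of the 45 pairs, 12 had an unadjusted permutation p under 0.05 and 0 passed after Benjamini-Hochberg adjustment, by Pearson's r permuted within groups and two-sided. Without knockout chow replicate 3, r was 0.63 for Fkbp5 with Dusp1, 0.67 for Zbtb16 with Dusp1 and 0.67 for Fkbp5 with Zbtb16, 10 pairs had an unadjusted p under 0.05, and 0 passed. With arrays scaled to a common median in place of quantile normalization, 6 pairs passed, all positive, among them these 3. Genes read on one array share its labelling and scaling.

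**Figure D4:**
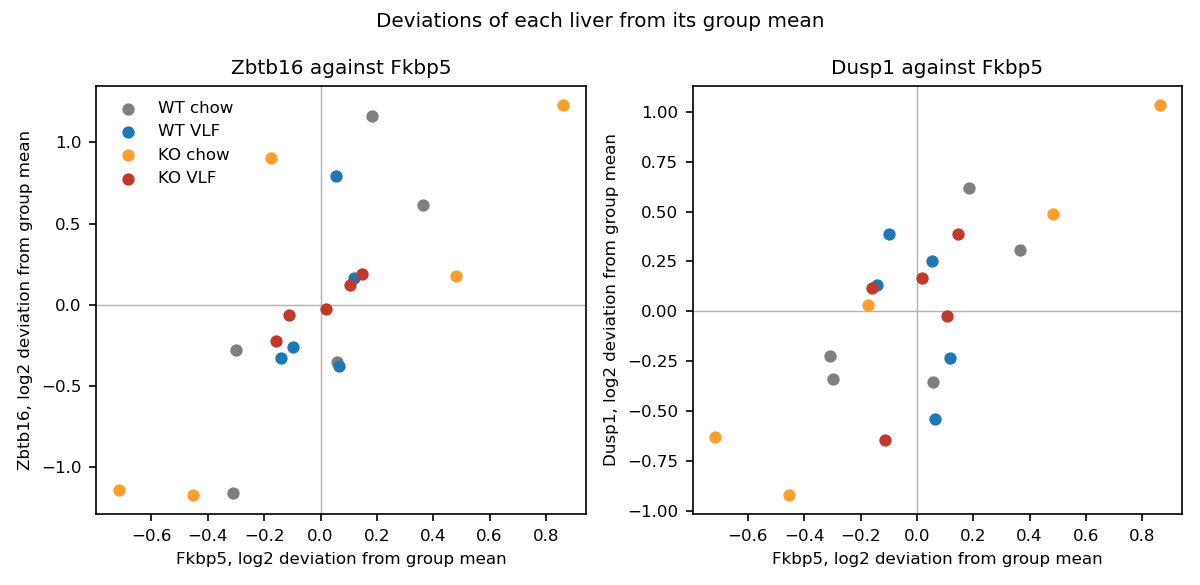
Deviation of each of the 20 livers from its group mean on the log2 scale, Fkbp5 on the x axis and Zbtb16 (left) or Dusp1 (right) on the y axis, coloured by group. The points run from lower left to upper right (r = 0.75 in both panels, adjusted permutation p = 0.121 and 0.0724), with knockout chow livers at both ends.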

How the data were processed

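RNA of 20 mouse livers, 5 in each of 4 groups, was read on Affymetrix arrays. The deposited values are linear intensities for 45101 probe sets; per the submitters' processing notes MAS5 and RMA were used, without saying which of them made the values. Probe sets were named through GEO's platform annotation: 34945 had 1 gene, 932 several and 9160 none, apart from 64 controls.

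Each array was first brought to the same median; values under 16 were set to 16, and log2 values were quantile normalized. A limma fit (version 3.58.1, R 4.3.3) of 4 group means over all 20 arrays was run on 45037 probe sets, with Benjamini-Hochberg adjustment over all of them, and a gene was called at an adjusted p under 0.05. Probe sets at the floor on every array (9114) were left out of the model and counted as tested and not changed. Printed levels are 2 to the power of the normalized log2 value, and folds and changes are differences of group means of log2. The script was tested on simulated data. The number of arrays limits the precision.

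The 10 genes, the pathway lists and the markers were chosen with earlier results of these data known. Of 181 list genes, 164 were found through a probe set of 1 gene. The genes named are the 10, up to 6 per pathway list with the smallest adjusted p on the VLF diet and up to 3 per other comparison where called, not all of which are printed, and the 3 nearest profiles of each member with a called change of 1 or more. Relations between livers used 100000 permutations within groups. The labels call the livers individual samples, so p-values measure the spread between those livers. Other scalings, floors, probe set rules, fits and each array left out were tried, as was dropping knockout chow replicate 3 from the relations, chosen after seeing the data. Neither the centring on hybridization controls nor the scaling to a common median used quantile normalization. Figures were drawn with matplotlib 3.10.9.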

Additional observations from a re-analysis of the deposited data

Results flagged for a closer look

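The effect of genotype differed between the diets, by the test of that difference in limma's fit, for 7 of the 10 genes, against 24.2% of all genes. The genotype effect on the VLF diet minus that on chow was -0.59 for Nr3c1, -1.51 for Hsd11b1, -4.82 for Serpina6, -1.01 for Errfi1 and -1.69 for Tsc22d3 on the log2 scale. It was 1.33 for Dusp1 and 1.41 for Sgk1. Within groups of 5 livers, no liver of these genes stood far enough from the rest to pass Dixon's 95% limit.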

How the results depend on the processing

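Of 490 changes of the 10 genes recomputed under other settings, 458 kept direction and side of the threshold, 18 lost the call, 11 gained it and 3 reversed; with 1 array left out it was 568 of 600, with 26 lost, 6 gained and 0 reversed. All reversals were of Tsc22d3 when probe sets with an _a_at, _s_at or _x_at ending were left out, so that its dim probe set, close to the floor, was read: -0.26 on chow, -0.13 by diet in wild type and 0.04 for the difference between diets. The number of the 10 called on chow moved from 3 to 0 when arrays were centred on hybridization controls and to 1 when only the compared groups were fitted. By diet in wild type it moved from 2 to 0 under both, and to 1 without probe sets with those name endings and with the replicate block. Genes called on chow were 534 in all, 1258 up and 234 down with median scaling, 3 with hybridization controls and 10 with only the compared groups. With 1 array left out, between 7 and 8 of the 10 were called between genotypes on the VLF diet, 2 to 4 on chow, 0 to 2 by diet in wild type, 7 to 8 by diet in the knockout and 6 to 7 for the difference between diets. With all arrays the shares of all genes called were, in that order, 42.1%, 2.94%, 1.57%, 34.7% and 24.2%. Relations between livers moved from 0 to 6 pairs with median scaling. Same-numbered livers of different groups did not deviate together (correlation -0.25 to 0.23 over 30 pairs, mean -0.01), so the block for replicate number pairs nothing; with it the counts, in the order just given, were 7, 3, 1, 8 and 6. Among the pathway lists, other settings moved the further inducible genes called on chow from 3 to between 0 and 8 and by diet in wild type from 1 to between 0 and 5, and clock genes on chow from 1 to between 0 and 5. Centring on hybridization controls moved the repressed list and the chaperones by diet in the knockout from 5 to 9 each, and the chaperones' difference between diets from 5 to 2. The cause of these moves was not tested.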
